A study of Mus musculus with 7 samples.

Results

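Fatty acid uptake and triglyceride synthesis were described through 9 genes: Lpl, Cd36, Acsl1, Gpam, Agpat2, Lpin1, Dgat1, Dgat2 and Pck1. The genes were chosen by symbol, as rows of the deposited array table that the platform annotation pairs with exactly 1 gene symbol. Of the 9 genes, 8 had such a row, each a single probe set, among 19938 genes in all, and Acsl1 was not analysed here. The comparison set 3 aP2-XBP1 transgenic samples against 4 wild type samples of epididymal white adipose tissue, the fat pad beside the epididymis, each on 1 Affymetrix array. All mice were male, 17 weeks old, of the C57Bl/6J background and fed chow, and the wild type mice were age-matched. The transgene overexpresses XBP1, a transcription factor of the endoplasmic reticulum stress response, from the aP2 (Fabp4) promoter, which is active in adipocytes and is also known to act in macrophages. The series title ties the study to insulin sensitivity and adiponectin multimers.

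Adipocytes store fatty acids as triglyceride. Lipoprotein lipase, secreted by adipocytes, frees fatty acids from circulating lipoproteins at the capillary wall, and CD36 helps carry them across the plasma membrane. Long-chain acyl-CoA synthetases activate them. A chain of enzymes in the outer mitochondrial membrane and the endoplasmic reticulum then adds acyl groups to glycerol 3-phosphate and removes its phosphate to yield triglyceride. PCK1, the cytosolic phosphoenolpyruvate carboxykinase, feeds glyceroneogenesis, which makes glycerol 3-phosphate without glucose, and insulin is known to repress its gene while favouring lipid synthesis.

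Values are log2 expression after RMA, and a difference is the transgenic mean minus the wild type mean on that scale, with the standard error (SE) from limma. Xbp1 itself averaged 9.80 ± 0.17 in transgenic fat (SD, n = 3) and 9.03 ± 0.13 in wild type fat (SD, n = 4). It differed by 0.77 (SE 0.11) and ranked 2 among all rows by limma's unadjusted p. Even so, Xbp1 did not pass limma's adjusted test (adjusted p = 0.622). Wild type replicates 1, 3 and 4 stood apart from the other 4 libraries by smooth muscle transcripts and by 3 of the 8 measured epididymal markers. These 3 were Serpina1f, Spink8 and Defb42, and the other 5 stayed dim in all 7 libraries. Serpina1f read 2.83 to 3.73 in transgenic fat, against 10.70, 2.74, 10.84 and 11.50 in wild type replicates 1, 2, 3 and 4. The 8 smooth muscle markers summed to between 1668 and 2446 linear units in transgenic fat, against 2572 in wild type replicate 2 and 8429 to 11564 in the other wild type libraries. The 7 macrophage markers summed to 3463 to 4171 in transgenic fat and to 2793 to 6854 in wild type fat, highest in wild type replicates 1 and 3. The labelled tissue was borne out by its markers. The mean log2 value of the 8 measured adipocyte markers ran from 10.06 to 10.95 across libraries, against a median row mean of 4.65. Fabp4 was never under 11.77 and Adipoq never under 11.09, and no detection calls were made. Bulk samples cannot tell fewer cells of a type from less RNA per cell. The labels do not say that each sample came from a separate mouse, and p-values therefore cover only sample-to-sample spread, part of which may be technical.

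In transgenic fat the mean of each of the 8 genes was the higher one, where 53.6% of the 21789 rows tested did, but 0 passed limma's test at an adjusted p of 0.05. Over all rows that test called 0% higher and 0% lower. At an unadjusted p under 0.05 limma found 4 of the 8 higher (Gpam, Agpat2, Dgat1 and Dgat2), against 4.82% of all rows. The median difference of the 8 genes was 0.52, against 0.01 over all rows. The acyltransferase genes Gpam, Agpat2, Dgat1 and Dgat2 had the wider differences, and Cd36, Pck1 and Lpl the narrower ones. Against wild type replicate 2 alone, the wild type library low in epididymal and muscle transcripts, the median difference of the 8 was 0.04.

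**Figure D1:**
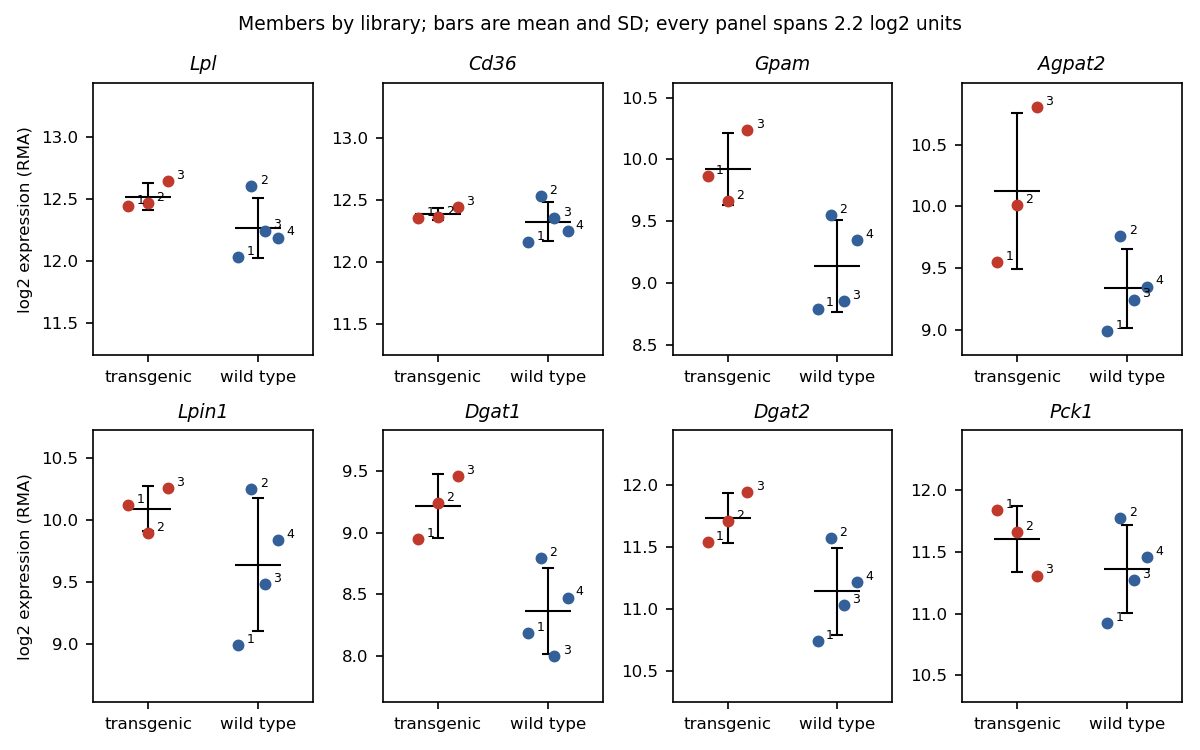
Log2 expression of the 8 genes in each library, transgenic left of wild type, with replicate numbers beside the points and bars for the mean and SD (n = 3 and n = 4). Gpam and Dgat1 are the panels in which the groups do not overlap, and wild type replicate 2 is the highest wild type library in all 8.

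Among the uptake genes, neither Lpl nor Cd36 had groups that separated. Lpl, which encodes lipoprotein lipase, read 12.44, 12.47 and 12.64 in transgenic replicates 1 to 3, against 12.03, 12.60, 12.25 and 12.19 in wild type replicates 1 to 4. The groups overlapped because wild type replicate 2 lay above transgenic replicates 1 and 2. Lpl differed by 0.25 (SE 0.14; limma adjusted p = 0.660; exact permutation p = 0.171).

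Cd36, the fatty acid translocase, read 12.36, 12.36 and 12.45 in transgenic fat, against 12.16, 12.53, 12.36 and 12.25 in wild type fat. Its transgenic libraries lay inside the wild type range. Cd36 differed by 0.06 (SE 0.09; limma adjusted p = 0.813), with a 95% interval from -0.15 to 0.28. Both probe sets sat near the top of the array, above 99.96% of the rows tested for each gene, and compression of differences at that brightness was not tested.

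The first acyl transfer showed a wider gap. Gpam, the mitochondrial glycerol-3-phosphate acyltransferase that starts glycerolipid synthesis, read 9.87, 9.66 and 10.24 in transgenic fat, against 8.80, 9.55, 8.86 and 9.35 in wild type fat. Every transgenic library lay above every wild type library, although transgenic replicate 2 lay close to wild type replicate 2. Gpam differed by 0.79 (SE 0.23), a 1.72-fold difference, with limma adjusted p = 0.622 and exact permutation p = 0.0571.

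Agpat2, the acyltransferase that turns lysophosphatidic acid into phosphatidic acid and whose loss causes human lipodystrophy, read 9.55, 10.01 and 10.80 in transgenic fat, against 8.99, 9.76, 9.25 and 9.35 in wild type fat. Transgenic replicate 3 stood high and transgenic replicate 1 lay below wild type replicate 2. Agpat2 also differed by 0.79 (SE 0.32; limma adjusted p = 0.627; exact permutation p = 0.0857), and by 0.45 without transgenic replicate 3.

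Lpin1, the phosphatidic acid phosphatase lipin 1, read 10.12, 9.90 and 10.26 in transgenic fat, against 8.99, 10.25, 9.48 and 9.84 in wild type fat. Its wild type libraries spanned 1.26, the widest wild type range of the 8 genes, and the groups overlapped. Lpin1 differed by 0.45 (SE 0.29; limma adjusted p = 0.679; exact permutation p = 0.229).

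The last step is shared by enzymes of unrelated families. Dgat1 read 8.95, 9.24 and 9.46 in transgenic fat, against 8.19, 8.80, 8.00 and 8.48 in wild type fat. The groups did not overlap, and Dgat1 had the largest difference of the 8 genes, 0.85 (SE 0.21), or 1.80-fold (limma adjusted p = 0.622; exact permutation p = 0.0571). It ranked 168 among the 21789 rows by limma's unadjusted p.

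Dgat2, the other acyltransferase of this step, read 11.55, 11.71 and 11.95 in transgenic fat, against 10.74, 11.58, 11.04 and 11.22 in wild type fat. Transgenic replicate 1 lay just under wild type replicate 2, and the groups overlapped only there. Dgat2 differed by 0.59 (SE 0.20), or 1.51-fold (limma adjusted p = 0.622; exact permutation p = 0.0857). The log2 value of Dgat1 minus that of Dgat2, taken within each library, had a mean 0.26 higher in transgenic than in wild type fat, with overlapping groups (exact two-sided permutation p = 0.0857). The 2 genes were thus not shown to differ in response.

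Pck1 read 11.84, 11.66 and 11.31 in transgenic fat, against 10.92, 11.77, 11.27 and 11.46 in wild type fat. The groups overlapped, and transgenic replicate 3 lay below 2 wild type libraries. Pck1 differed by 0.25 (SE 0.22; limma adjusted p = 0.734; exact permutation p = 0.343). The smallest p that this permutation test allows with 3 and 4 libraries is 0.0286.

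Groups thus did not overlap for 2 of the 8 genes, Gpam and Dgat1, both higher in transgenic fat, where 3.38% of all rows did so, and 0 of the 8 were lower without overlap, against 2.44% of all rows. A difference of 0.5 or more was seen for 4 of the 8, against 1.62% of all rows. Each of the 8 genes was brighter than at least 95.3% of all rows, and shares among rows of like brightness were not computed. The order of the libraries was shared by most of the 8. Transgenic replicate 3 was the highest transgenic library for 7 genes, with Pck1 the exception, for which it was the lowest. Wild type replicate 1 was the lowest wild type library for 7 genes, the exception being Dgat1, lowest in replicate 3. Wild type replicate 2 was the highest wild type library for all 8, as it was for 27.8% of all rows. For Cd36 it was also the highest of the 7 libraries.

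**Figure D2:**
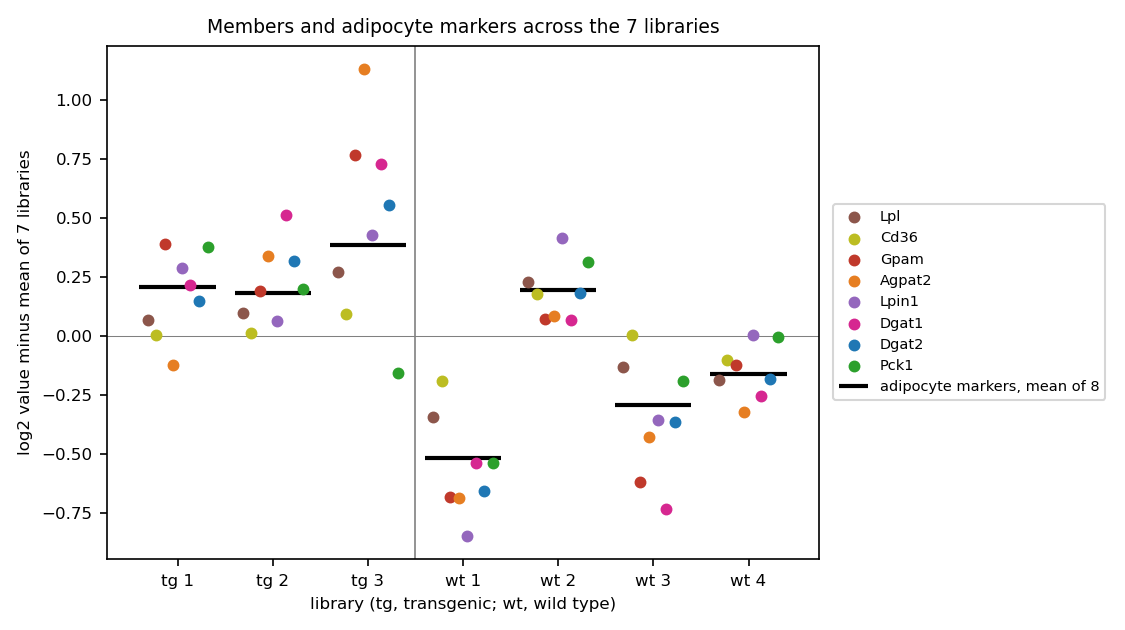
Each gene's log2 value minus its own mean over the 7 libraries, with a black bar for the mean of 8 adipocyte markers treated likewise. Most of the genes sit low in wild type replicates 1 and 3 and above 0 in replicate 2 of that genotype. Agpat2 lies high and Pck1 below 0 in transgenic replicate 3.

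Set against wild type replicate 2 alone, 4 of the 8 genes had a higher transgenic mean and 4 a lower one. All 3 transgenic libraries lay above that library for Gpam and Dgat1, 2 of 3 for Agpat2 and Dgat2, 1 of 3 for Lpl, Lpin1 and Pck1, and 0 of 3 for Cd36. The transgenic mean was higher by 0.42 for Dgat1, 0.38 for Gpam, 0.37 for Agpat2 and 0.16 for Dgat2. The difference was -0.08 for Lpl, -0.14 for Cd36, -0.16 for Lpin1 and -0.17 for Pck1. A limma fit with this library as the only control, which assumes that it varies like the transgenic libraries, called 0 of the 8. Without this library limma also called 0 of the 8, against 0.0321% of all rows called higher and 0.386% called lower. Of all rows, 51.9% had a higher transgenic mean than wild type replicate 2, a share close to the 4 of the 8 genes.

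The measured adipocyte markers were Adipoq, Plin1, Cidec, Lep, Fabp4, Retn, Slc2a4 and Pparg. Of these, Plin1, Cidec, Fabp4 and Slc2a4 also stand in the pathway lists described below. The marker mean is thus not a separate gauge of adipocyte content. These adipocyte markers moved with the 8 genes. Their mean log2 value was 10.78, 10.75 and 10.95 in transgenic replicates 1 to 3, against 10.06, 10.76, 10.28 and 10.41 in wild type replicates 1 to 4, a difference of 0.45 (exact two-sided permutation p = 0.0857). All 8 of these markers had a higher transgenic mean, with a median difference of 0.44. At an unadjusted limma p under 0.05, 5 of the 8 markers were higher, against 4.82% of all rows. Without overlap 3 of the 8 markers were higher, against 3.38% of all rows. In an added calculation each of the 8 pathway genes was taken relative to the adipocyte marker mean of its own library. This lowers the difference of every gene by the same 0.45 and leaves their order unchanged. The median difference of all rows falls to -0.44.

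On that relative scale Dgat1 read -1.83, -1.51 and -1.50 in transgenic fat, against -1.87, -1.97, -2.28 and -1.94 in wild type fat. The groups did not overlap, and the difference was 0.40 (exact permutation p = 0.0286, the smallest possible). Of all rows, 0.156% were higher without overlap on this scale. That share is small by construction, because subtracting the marker mean lowers the difference of every row. It is thus no measure of how unusual Dgat1 is. Gpam and Agpat2 each differed by 0.34 and Dgat2 by 0.14, with overlapping groups (exact permutation p = 0.0857, 0.286 and 0.114). Agpat2 read -1.22, -0.74 and -0.15 in transgenic fat, against -1.07 to -1.01 in wild type fat. Transgenic replicate 1 was thus the lowest library for Agpat2, and transgenic replicate 3 the highest. For Lpin1 the difference was 0.0034. The relative difference was -0.20 for Lpl and -0.39 for Cd36, both lower without overlap (exact permutation p = 0.0571 each), as 25.7% of all rows were. Pck1 differed by -0.20, with overlapping groups. These p-values are not adjusted for the 8 genes compared, and the share of the differences that goes with adipocyte content was not tested.

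**Figure D3:**
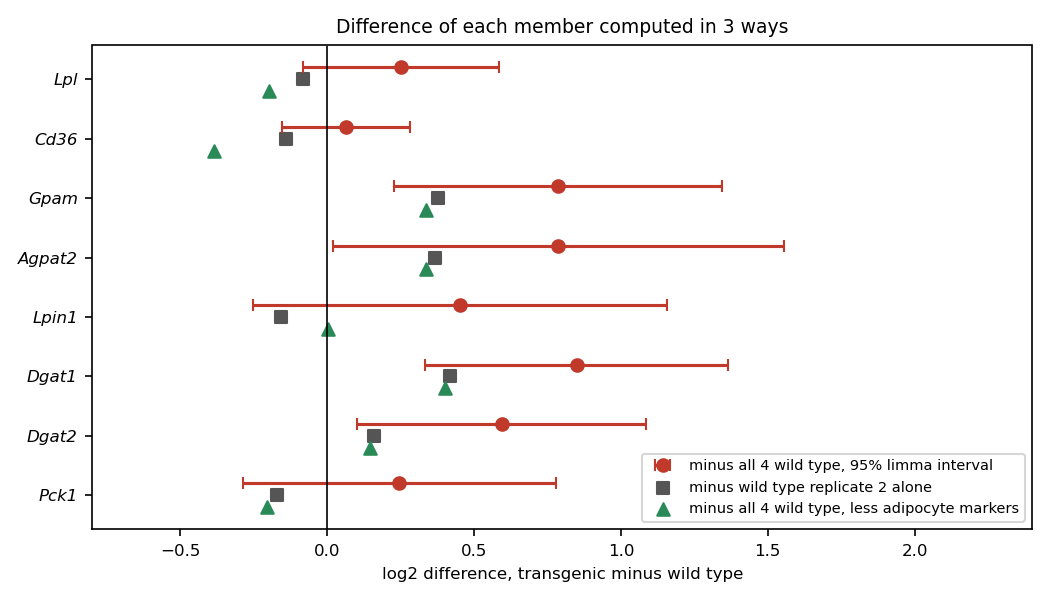
Log2 difference of each gene, transgenic minus wild type, with the 95% limma interval over all libraries (circles), against wild type replicate 2 alone (squares) and relative to the adipocyte markers (triangles). Gpam, Agpat2, Dgat1 and Dgat2 stay right of 0 in all 3, and Lpl, Cd36, Lpin1 and Pck1 do not. Each triangle is its circle lowered by 0.45, so triangles repeat the order of the circles. All 3 measures use the same transgenic libraries and are not separate checks.

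Upstream sequences were available for 5 of the 8 genes in RefSeq (GRCm38.p6), with 2 starts for Gpam, and Lpl, Dgat1 and Dgat2 had no entry. The 250 bases before each start were searched on both strands for 4 motifs: TGACGTG, the core that spliced XBP1 binds in the unfolded protein response element, CCACG, one part of the ER stress element, AGGTCA, a hexamer bound by nuclear receptors such as PPARG, and CACGTG, an E-box. These short motifs can also be parts of longer sites of other factors, and no 2 of them matched at the same position. TGACGTG was in 0 of the 6 upstream windows, as against 1.65% of 32851 RefSeq windows, and CACGTG in 0 of 6, as against 6.02%. AGGTCA was in 3 of 6 (Cd36, Lpin1 and a Gpam start), as against 14.0%, and CCACG in 2 of 6 (Agpat2 and Lpin1), as against 28.3%. The Pck1 window and the other Gpam window held none. A match is a run of letters, not a binding site. The windows with a match are shown for Gpam and Agpat2, which differed by 0.79, and for Lpin1 and Cd36, which differed less, 5' to 3' on the gene's strand with matches in capitals. They lie at chr19:55099478-55099727, chr2:26604418-26604667, chr12:16610967-16611216 and chr5:17835897-17836146, all on the minus strand.
Gpam: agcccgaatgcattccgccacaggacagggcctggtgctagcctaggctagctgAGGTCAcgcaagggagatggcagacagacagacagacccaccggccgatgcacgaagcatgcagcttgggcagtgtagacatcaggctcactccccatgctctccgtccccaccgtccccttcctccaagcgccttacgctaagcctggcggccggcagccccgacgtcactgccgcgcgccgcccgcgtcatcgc
Agpat2: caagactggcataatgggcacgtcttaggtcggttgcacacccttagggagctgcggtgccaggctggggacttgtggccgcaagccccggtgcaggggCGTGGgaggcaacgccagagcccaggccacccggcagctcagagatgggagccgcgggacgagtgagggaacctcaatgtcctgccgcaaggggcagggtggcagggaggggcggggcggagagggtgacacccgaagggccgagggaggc
Lpin1: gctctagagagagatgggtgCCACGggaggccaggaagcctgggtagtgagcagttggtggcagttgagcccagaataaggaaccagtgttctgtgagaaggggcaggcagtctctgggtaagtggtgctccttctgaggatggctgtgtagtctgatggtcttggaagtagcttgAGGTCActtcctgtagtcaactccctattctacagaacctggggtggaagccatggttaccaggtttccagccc
Cd36: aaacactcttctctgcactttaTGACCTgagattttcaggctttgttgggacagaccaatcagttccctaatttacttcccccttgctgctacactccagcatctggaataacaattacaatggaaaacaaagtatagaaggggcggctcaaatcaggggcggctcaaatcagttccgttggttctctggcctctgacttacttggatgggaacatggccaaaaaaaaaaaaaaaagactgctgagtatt

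Around the 8 genes, 57 further genes in 5 lists cover the same route. In these lists the transgenic mean was above the wild type mean for 43 and below it for 14, where 53.6% of all rows were above. Of the 57, 0 passed the adjusted test in either direction. At an unadjusted p under 0.05, 22 were higher and 1 lower, where 4.82% and 3.12% of all rows were. Against wild type replicate 2 alone, 37 of the 57 had a higher transgenic mean, where 51.9% of all rows did. Their median difference was 0.08 against that library and 0.22 against all wild type libraries. The 2 genes with the smallest p of each list are named, and limma's adjusted p was 0.622 for each of these 10. Against wild type replicate 2 the difference was 0.68 for Cidea, 0.57 for Pcx, 0.53 for Apoc1 and 0.47 for Slc2a4. It was 0.32 for Gpat3, 0.28 for Agpat3, 0.21 for Slc27a1 and 0.16 each for Gpihbp1 and Fitm2.

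Handlers of lipoprotein lipase had a median difference of 0.23 over 10 genes, with 7 higher and 3 lower. Gpihbp1, the capillary anchor of lipoprotein lipase, read 7.93, 7.69 and 7.88 in transgenic fat, against 7.17, 7.68, 7.23 and 7.32 in wild type fat. The groups did not overlap, though transgenic replicate 2 and wild type replicate 2 nearly met, and Gpihbp1 differed by 0.49 (SE 0.13). Endothelial markers, whose cells make Gpihbp1, had a higher transgenic mean in 7 of 7, where 53.6% of all rows did, with a median difference of 0.21. Against wild type replicate 2 alone, 4 of these 7 were higher, with a median of 0.07. The part of endothelial cells in the Gpihbp1 difference was not tested. Apoc1, a small apolipoprotein known to inhibit lipoprotein lipase, differed by 0.74 (SE 0.20) with no overlap.

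Uptake, transport and activation had a median difference of 0.10 over 13 genes, with 9 higher and 4 lower. Against wild type replicate 2 alone, 5 of the 13 were higher and the median was -0.01, the only one of the 5 lists below 0. Acsl4, an acyl-CoA synthetase that prefers arachidonate, read 6.62, 6.56 and 6.44 in transgenic fat, against 7.74, 6.91, 8.03 and 8.42 in wild type fat. It was lower in every transgenic library, with a difference of -1.24 (SE 0.34), and of -0.37 against wild type replicate 2. Its wild type replicates 1, 3 and 4 are those with epididymal and smooth muscle transcripts, whose part in this difference was not tested. Slc27a1, the fatty acid transport protein FATP1, differed by 0.52 (SE 0.17) with overlapping groups.

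Glycerol phosphate supply had the highest median difference of the 5 lists, 0.43 over 9 genes, with 8 higher and 1 lower. Pcx, the pyruvate carboxylase that feeds PCK1 and citrate export, read 10.26, 10.99 and 11.41 in transgenic fat, against 9.27, 10.32, 9.56 and 9.89 in wild type fat. Transgenic replicate 1 lay just under wild type replicate 2, and Pcx differed by 1.13 (SE 0.34). Slc2a4, the insulin-responsive glucose transporter, differed by 0.83 (SE 0.23) with no overlap, and it also stands among the adipocyte markers.

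Among 13 other acyltransferases, lipins and lipin regulators the median difference was 0.10, with 9 higher and 4 lower. Gpat3, a glycerol-3-phosphate acyltransferase of the endoplasmic reticulum, read 8.17, 8.47 and 8.24 in transgenic fat, against 7.30, 7.98, 7.24 and 7.77 in wild type fat, a difference of 0.72 (SE 0.20). Agpat3 differed by 0.33 (SE 0.09). Neither gene's groups overlapped.

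Droplet coat and growth genes had a median difference of 0.28 over 12 genes, with 10 higher and 2 lower. Fitm2, which partitions new triglyceride into droplets, read 7.48, 7.32 and 7.41 in transgenic fat, against 6.49, 7.24, 6.70 and 6.94 in wild type fat. Fitm2 differed by 0.56 (SE 0.18) and Cidea, a droplet protein of brown and beige adipocytes, by 0.76 (SE 0.23), both with no overlap. Cidea was dim, with a mean of 4.38 over all libraries, above only 46.7% of the rows tested.

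**Figure D4:**
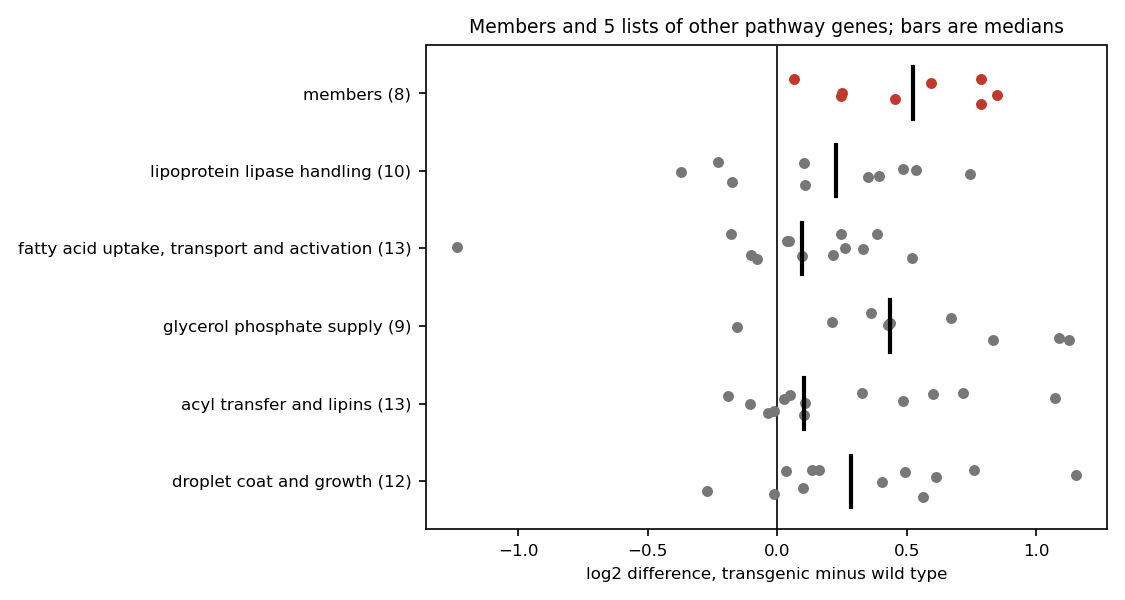
Log2 difference of every measured gene, transgenic minus wild type, for the 8 genes (red) and the 5 other lists (grey), with a black bar at each median and the number of genes in brackets. The medians run from 0.10 to 0.52, and Acsl4 is the grey point at -1.24.

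The genes whose library pattern was most like the mean of the 8 were sought among 9887 genes above the median brightness, by the root mean square distance of centred log2 values over the 7 libraries. They were Retn, the adipocyte hormone resistin (0.03), Gpc4, the glypican known to act on the insulin receptor (0.04), and Ivd, Ptgr2 and Cat at 0.06 each. Retn also stands among the adipocyte markers, whose mean followed a like library order. Ivd is a dehydrogenase of leucine breakdown, Ptgr2 a prostaglandin reductase and Cat the peroxisomal catalase. Retn read 11.46, 11.54 and 11.82 in transgenic fat, against 10.79, 11.49, 10.92 and 11.15 in wild type fat. Among the 8 genes themselves Dgat2 lay nearest to the shared pattern (0.06) and Agpat2 farthest (0.29).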

How the data were processed

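RNA of 7 fat samples was measured on 1-colour arrays. The authors deposited log2 expression values made with RMA, per the submitters' processing notes, which corrects background, normalizes by quantiles and summarises probe sets; its version, filters and genome build are not named there or in the labels. A shift of all genes in 1 genotype would not be visible in such values. Array medians ran from 3.99 to 4.01 in transgenic and 4.03 to 4.04 in wild type arrays. Precision is limited by how many arrays there are. Each of the 7 columns was named by its sample. No 2 columns were identical throughout: at most 15.4% of rows were equal to the last digit in any of the 21 pairs.

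Of 35556 rows, 21789 carried 1 gene symbol (19938 genes), 1621 several and 12146 none. Symbols are those of the platform annotation. The brightest row stood for each gene. Transgenic minus wild type was fitted over the 21789 rows with limma 3.58.1 (lmFit, eBayes, two-sided) in R 4.3.3, genotype the only term, Benjamini-Hochberg adjusted over all rows. Single values had exact two-sided permutation tests over the 35 divisions of 7 libraries into 3 and 4. The members, lists, tests, alternatives and marker lists were chosen with earlier results of these data known. All members were named; of each pathway list, the 2 genes of smallest p; of each marker list, summed linear levels; and the 5 genes most alike in pattern. Calculations relative to adipocyte markers were added after the values were seen. The fit was tested on simulated data. Drawing used Python 3.11.15 and matplotlib 3.10.9.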

Additional observations from a re-analysis of the deposited data

Results flagged for a closer look

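Within the 4 wild type libraries, 4 of 36 genes examined had 1 library far from the other 3 by Dixon's criterion, which chance meets in about 5% of groups. The 36 genes were not chosen independently of these values, so the 4 cannot be weighed against that rate. Serpina1f and Spink8 were examined as the brightest epididymal markers, and they were bright only in wild type replicates 1, 3 and 4. None of the 4 flagged genes was among the 8 pathway genes. Cidea read 3.81 in wild type replicate 1, against 4.12 to 4.14 in the other 3. Serpina1f read 2.74 and Spink8 2.45 in wild type replicate 2, against 10.70 to 11.50 and 8.82 to 9.51 in the other 3. Acta2, smooth muscle actin, read 10.72 in wild type replicate 2, against 11.79 to 11.95.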

How the results depend on the processing

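In each refit and with an adjusted p threshold of 0.1, limma called 0 of the 8 genes. Over all rows it called 7 higher and 84 lower without wild type replicate 2, and 0 in each direction in the other refits. The median difference of the 8 genes, 0.52, ran from 0.35 (without wild type replicate 1) to 0.70 (without wild type replicate 2) as single libraries were left out. It was 0.038 with replicate 2 as the sole wild type library and 0.074 relative to the adipocyte markers. Against that sole library the difference was -0.084 for Lpl, -0.14 for Cd36, -0.16 for Lpin1 and -0.17 for Pck1. Relative to the adipocyte markers it was -0.20 for Lpl, -0.39 for Cd36 and -0.20 for Pck1. The cause was not tested. Dgat1 ran from 0.40 to 1.05, Gpam from 0.34 to 0.92, Agpat2 from 0.34 to 1.07 and Dgat2 from 0.14 to 0.74 over all these settings, with the smallest limma adjusted p at 0.146 (Dgat1, without wild type replicate 2). Same-numbered libraries did not deviate together (correlations of -0.14, -0.09 and 0.06 across rows), so the numbers were not taken as pairs. With the replicate number as a block, the median difference was 0.57 and limma called 0 rows.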

Other observations

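Among the 10 epididymal genes listed as markers, 8 were measured, and they did not behave alike. Serpina1f, Spink8 and Defb42 were bright in wild type replicates 1, 3 and 4, whereas Lcn5, Lcn8, Adam7, Rnase9 and Rnase10 stayed at or below 4.69 in all 7 libraries. The highest of these, Adam7, read 4.69 in transgenic replicate 1.

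The macrophage markers had a lower transgenic mean in 7 of 7 genes, with a median difference of -0.28 and 0 passing limma's adjusted test. Cd68 read 8.39, 8.37 and 9.01 in transgenic fat, against 10.76, 9.20, 10.29 and 7.84 in wild type fat, so wild type replicate 4 was the lowest of the 7 libraries. Plin2, the droplet coat protein of many cell types, read 9.72, 10.17 and 10.45 in transgenic fat, against 11.33, 9.99, 10.96 and 9.28 in wild type fat. Both genes were high in wild type replicates 1 and 3 and low in wild type replicate 4, an order that differs from that of Plin1 and of the 8 pathway genes.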
